A study of Mus musculus with 6 samples.

Results

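The genes described here encode the classical axon guidance ligands and their receptors. They are the autosomal protein-coding genes of GRCm38 whose symbols belong to the semaphorins 3 to 7, plexins A to D, ephrins, Eph receptors, Slits, Robos, netrins or Unc5 receptors. By this symbol rule, which uses no measured value, there were 63 such genes among 20665 autosomal protein-coding genes. Of these, 34 encode ligands (20 semaphorins, 7 ephrins, 3 Slits and 4 netrins) and 29 encode receptors (14 Eph receptors, 7 plexins, 4 Robos and 4 Unc5 receptors). The X-linked members of the families were outside the rule.

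The measurements came from P19, a mouse line of embryonal carcinoma cells, kept undifferentiated in serum-containing medium. Native chromatin, which is not crosslinked, was precipitated with 1 antibody against crotonylated (H3K9cr) and 1 against acetylated (H3K9ac) lysine 9 of histone H3. Each mark had 2 libraries, described in the design text as biological replicates. No treatment or genotype distinguished the libraries, so the comparison available is that of H3K9cr with H3K9ac in the same untreated line, and 2 input libraries were not used here. With 1 antibody per mark, a property of the antibody and of the mark cannot be told apart. All samples come from 1 cell line.

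Axon guidance works through pairs of secreted or membrane-bound cues and surface receptors that steer the growing tip of a nerve cell. Semaphorins act mainly through plexins, ephrins through Eph receptor tyrosine kinases, Slits through Robos, and netrins through Dcc and Unc5 receptors. The same families also act outside the nervous system, in blood vessel growth, cell sorting and epithelial boundaries. Acetylation and crotonylation of H3K9 are neutralising modifications of the histone tail that are typically found at active promoters and enhancers. P19 cells can form neurons when induced, but the cells profiled here were not induced.

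Each library was deposited as a list of peaks, with 28360 and 28345 peaks for H3K9cr and 26096 and 27474 for H3K9ac. No counting interval is given because the read depth is unknown here, and a gene without a listed peak is not a gene shown to lack the mark. Cell type markers were read with the same window as the guidance genes, the gene record plus 2.5 kb on either side. Peaks lay in every library at 8 of 8 markers of undifferentiated carcinoma cells (Pou5f1, Sox2, Nanog, Utf1, Lin28a, Fgf4, Dppa4 and Dnmt3b). They also lay there at 6 of 6 matched neuronal markers (Tubb3, Map2, Rbfox3, Neurod1, Snap25 and Syt1) and at 4 of 5 matched glial markers (Gfap, Aqp4, Olig2 and Mbp, but not S100b). Of 6 endothelial and blood markers, Pecam1, Tek and Cd3e had a peak in every library, and Cdh5, Ptprc and Hbb-bt had none. Of 6 fibroblast markers, Col1a1, Col1a2 and Pdgfra had a peak in every library, Dcn had one in both H3K9cr libraries alone, and Col3a1 and Lum had none. Over all autosomal protein-coding genes the share with a peak in every library was 69.5%. A peak in the window therefore did not separate markers of the labelled cell type from those of neurons, and any part of other cell types in the peaks was not tested. Peak strength differed more. The median of the mean list percentiles, explained below, was 75.6 for carcinoma, 56.2 for neuronal and 43.7 for glial markers with peaks. It was 48.0 for the fibroblast and 40.8 for the endothelial and blood markers with a peak in every library. All genes with a peak in every library had a median of 77.2, so the carcinoma markers did not stand above the typical such gene. The carcinoma and neuronal sets overlapped, with Nanog at 34.0 and Tubb3 at 68.8.

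Every guidance gene had peaks of both marks in its window, which for Ntn5 lay only in the 2.5 kb margin. A peak overlapped the window of 63 of 63 genes in each of the 4 libraries, against 69.5% of all autosomal protein-coding genes. No guidance gene had a peak for only 1 of the marks. Long genes meet a peak more often, and the guidance genes are long, with a median record of 46301 bp against 17491 bp for all genes. Among genes under 20 kb, 57.3% had a peak in every library, as did 18 of 18 guidance genes of that size. Among genes of 20 to 100 kb the share was 81.3%, beside 16 of 16 guidance genes, and above 100 kb it was 91.3%, beside 29 of 29.

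The strongest peaks of guidance genes ranked below those of other marked genes, and the summed width of their peaks was larger. Strength is given as the fold enrichment over local background that the authors' peak caller wrote for each peak. It is used to describe and rank peaks within a list, mainly as the percentile of a gene's strongest peak among all peaks of that library. The median percentile of the guidance genes was 64.0 and 63.0 in the H3K9cr libraries and 59.4 and 62.8 in the H3K9ac libraries. All 14372 genes with a peak in every library had medians of 77.7, 77.8, 75.6 and 77.2 in the same order. The typical guidance gene thus ranked below the typical marked gene in each of the 4 lists. For covered length, the number of bp under peaks in a gene's window, the order was the other way round. The medians were 3175, 3491, 2889 and 3199 bp for guidance genes and 2396, 2439, 2211 and 2351 bp for all marked genes. Covered length is a sum over peaks and is not divided by gene length. The median number of peaks was 2 for guidance genes and 1 for all marked genes in each library, and the median record of the marked genes was 24032 bp. Single regions in every library had a median length of 1858 bp at guidance genes and 1660 bp across the autosomes.

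**Figure D1:**
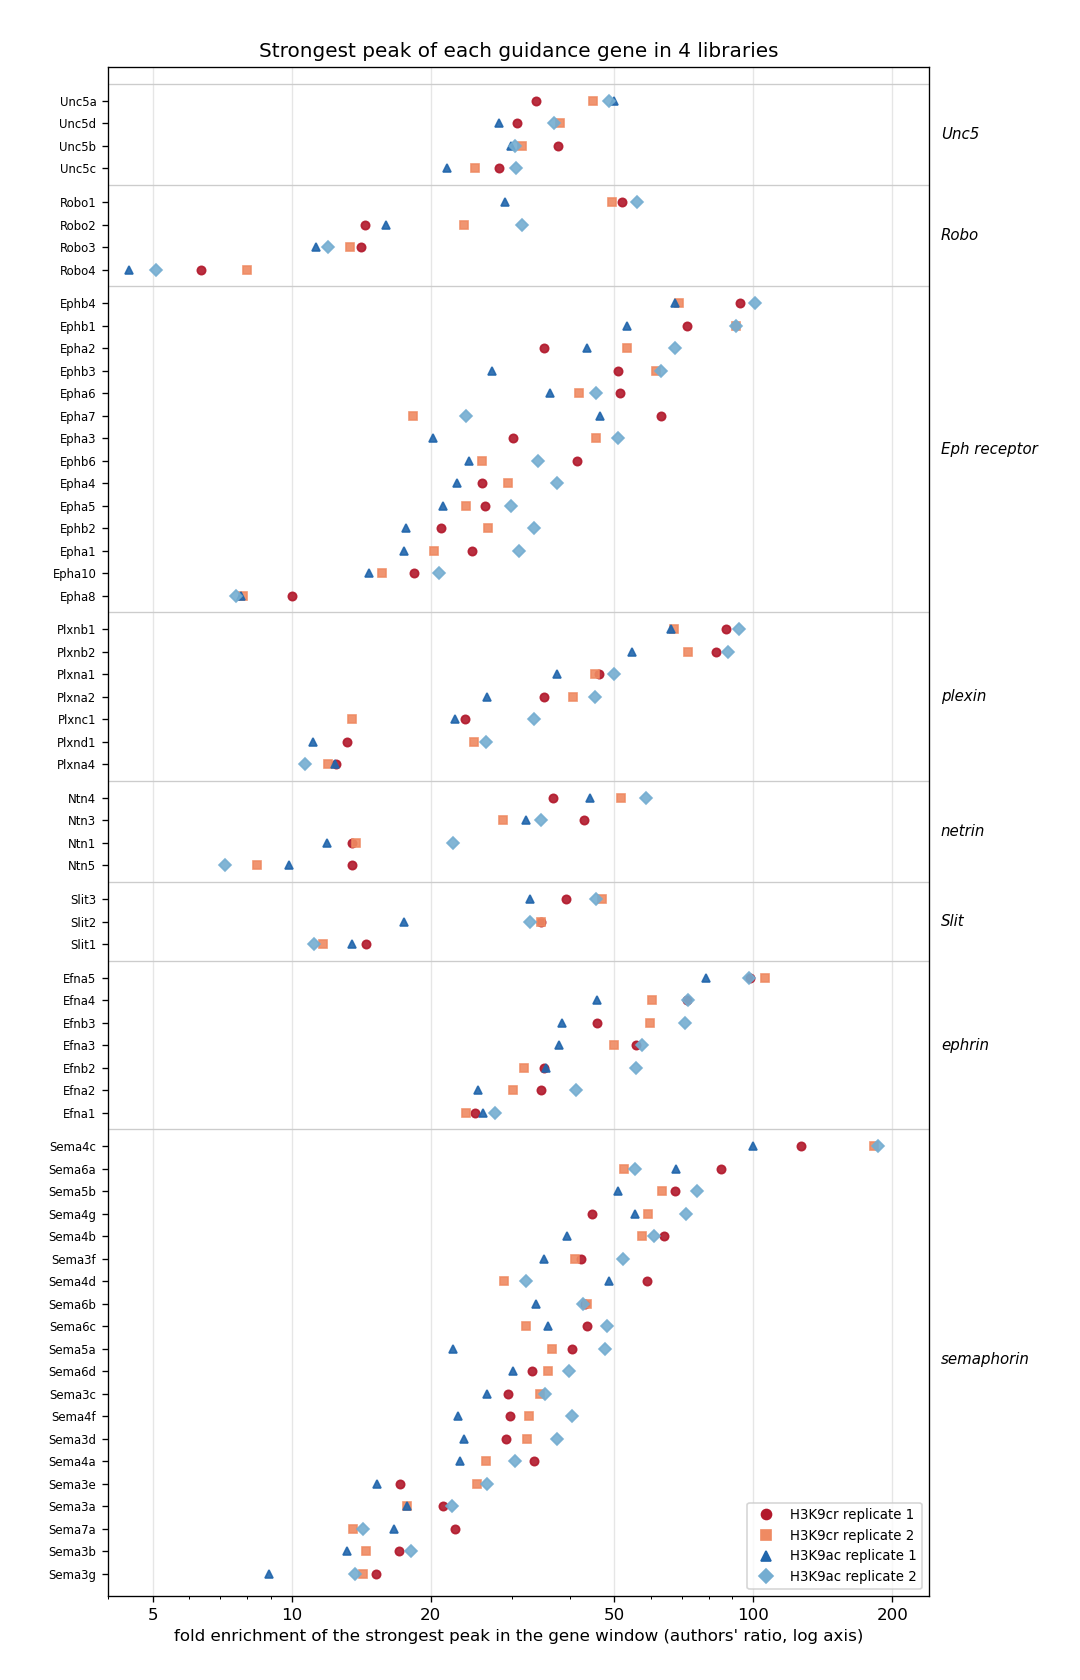
Fold enrichment of the strongest peak in the window of each of the 63 guidance genes (log axis, the authors' ratio), with 1 point per library, genes grouped by family and ordered by mean list percentile. Sema4c lies highest, between 99.7 and 186, and Robo4 lowest, between 4.45 and 8.01.

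The DNA around starts with and without peaks differed in CpG content. Listed starts were available for 54 of the 63 genes, 70 starts in all, from RefSeq on GRCm38.p6. Each sequence runs from 250 bases before the start to 50 bases after it. Shown first are the starts of the pair of genes with the highest mean percentile, Sema4c (chr1:36558332-36558631, minus strand) and Efna5 (chr17:62881268-62881567, minus strand). Below them are the pair of lowest-ranked genes whose starts were covered in no library, Robo4 (chr9:37401722-37402021, plus strand) and Ntn5 (chr7:45683772-45684071, plus strand). Each is written 5′ to 3′ on the strand of the gene, with CG dinucleotides in capitals.
Sema4c: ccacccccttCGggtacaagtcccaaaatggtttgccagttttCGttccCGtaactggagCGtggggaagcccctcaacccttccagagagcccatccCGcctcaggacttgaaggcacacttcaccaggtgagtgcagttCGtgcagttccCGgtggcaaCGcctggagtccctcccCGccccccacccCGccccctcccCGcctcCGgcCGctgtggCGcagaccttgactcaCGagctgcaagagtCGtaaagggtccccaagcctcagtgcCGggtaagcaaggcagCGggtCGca
Efna5: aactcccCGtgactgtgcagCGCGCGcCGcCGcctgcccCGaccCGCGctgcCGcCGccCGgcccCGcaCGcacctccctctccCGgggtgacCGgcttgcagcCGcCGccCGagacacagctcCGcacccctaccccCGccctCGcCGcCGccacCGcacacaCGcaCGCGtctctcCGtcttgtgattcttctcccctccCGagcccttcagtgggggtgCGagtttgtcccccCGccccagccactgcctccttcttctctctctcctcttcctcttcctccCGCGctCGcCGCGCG
Robo4: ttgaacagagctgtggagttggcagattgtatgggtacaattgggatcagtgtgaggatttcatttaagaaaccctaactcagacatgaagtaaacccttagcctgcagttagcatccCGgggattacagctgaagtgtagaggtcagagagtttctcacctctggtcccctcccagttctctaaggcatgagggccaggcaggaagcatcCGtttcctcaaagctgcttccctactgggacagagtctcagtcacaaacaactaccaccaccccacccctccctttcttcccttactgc
Ntn5: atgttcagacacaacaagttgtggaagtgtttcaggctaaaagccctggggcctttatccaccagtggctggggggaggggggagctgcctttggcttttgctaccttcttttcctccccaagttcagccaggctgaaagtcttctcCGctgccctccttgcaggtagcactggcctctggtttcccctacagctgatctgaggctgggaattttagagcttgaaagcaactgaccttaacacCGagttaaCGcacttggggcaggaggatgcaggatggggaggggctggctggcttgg
The Sema4c sequence holds 19 CG and the Efna5 sequence 38, against 2 in that of Robo4 and 3 in that of Ntn5. The ratio of observed to expected CpG, which corrects for base composition, was 0.631 for Sema4c and 1.10 for Efna5. It was 0.106 for Robo4 and 0.132 for Ntn5. Epha8, which ranked between Robo4 and Ntn5, was passed over by this choice because its start was covered in 3 libraries.

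The same split ran through the family as a whole. The 51 guidance starts covered by a peak in every library had a median ratio of 0.692 and a median of 23 CG. The 12 starts covered in no library had a median ratio of 0.153, a range of 0.101 to 0.447 and a median of 3 CG. Across all genes the medians were 0.790 for 11135 covered starts and 0.192 for 7832 uncovered ones, so the guidance genes followed the general pattern. The GC box, searched as GGGCGG or its complement CCGCCC, was present at 82.4% of covered guidance starts, against 69.5% of all covered starts. It was present at 16.7% of uncovered guidance starts, against 13.0% of all uncovered starts, and at 47.0% of all starts together. The CCAAT box, searched as CCAAT or ATTGG, was present at 28.6% of guidance starts and 38.1% of all starts. The TATA box, searched as TATAAA or TTTATA, was present at 2.86% of guidance starts and 12.7% of all starts, or 3.92% and 5.50% of the covered ones. These are matches of letters and not shown to be binding sites, and starts of 1 gene can share sequence.

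**Figure D2:**
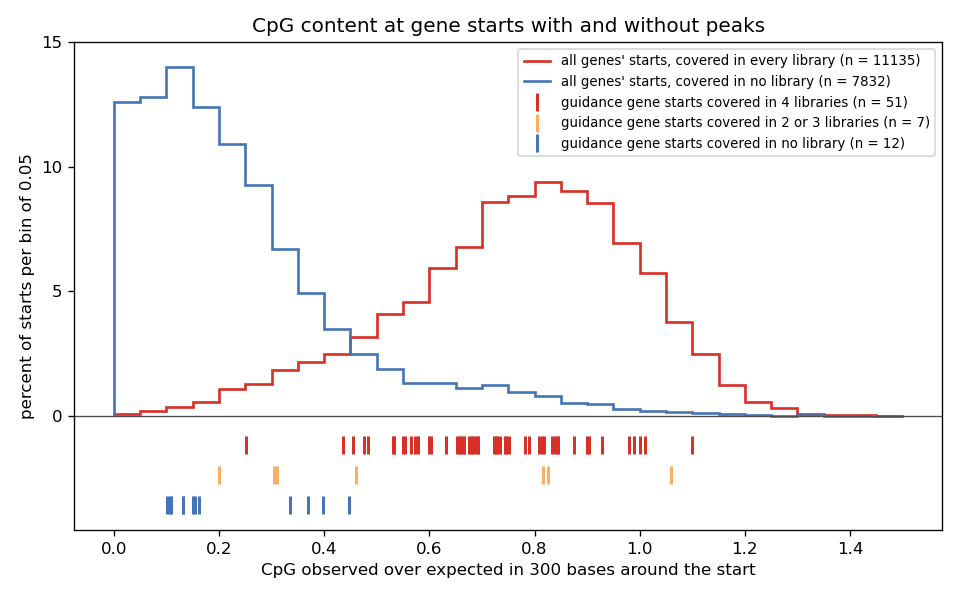
CpG observed over expected in 300 bases around gene starts (x axis), as the percent of starts per bin for all genes (lines) and as 1 tick per guidance gene start below the axis. Guidance starts covered in no library lie between 0.101 and 0.447, and those covered in all 4 libraries between 0.251 and 1.10.

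The start of Epha8 was among the exceptions. Epha8 encodes an Eph receptor tyrosine kinase, and its start held 56 CG with a ratio of 1.06. The region over that start was listed in 3 libraries, with fold enrichments of 4.22 and 4.28 for H3K9cr and 5.57 for the second H3K9ac library. It was thus CpG-rich but only weakly enriched. The start of Unc5a (37 CG, ratio 0.816) and the outer start of Sema6b (29 CG, ratio 0.826) were also covered in 3 libraries only. The inner start of Sema6b was covered in all 4, with 6 CG and a ratio of 0.251.

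Most starts of guidance genes were covered in every library. At least 1 listed start was under a peak in all 4 libraries for 45 of the 54 genes (83.3%), against 57.2% of all 16457 genes with a listed start. Epha8, Epha2, Unc5a and Sema3g had a start covered in 3 libraries. For Sema3a, Sema4d, Sema4f, Ntn5 and Robo4 no listed start was covered in any library. Sema4f, which encodes a membrane-bound semaphorin, had its only region 51 bp from its listed start. At Ntn5 the distance was 797 bp, with the region upstream, and at Robo4 it was 5855 bp, inside the gene. The strongest region of Sema4d lay 35686 bp from the nearest listed start, upstream of the listed starts. It ran over the 5′ end of the gene record on chromosome 13 and 583 bp beyond it. Sema3a encodes a secreted repellent cue that acts through neuropilin and plexin, and its region began 1290 bp from the listed start.

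Regions in gene bodies had lower medians of length and strength than regions at starts. Overlapping peaks of the 4 lists were merged into regions, which gave 163 regions at guidance genes, 117 of them in every library (71.8%). Across the autosomes 22275 of 30262 regions (73.6%) were in every library. Among the 54 genes with a listed start, 57 regions lay within 1 kb of an own start, 55 of them in every library, with a median length of 2351 bp for those 55. A further 62 regions overlapped the gene record away from any listed start and are called gene body regions. Of these, 2 (at Robo1 and Sema4d) ran over the 5′ end of the record, and 34 of the 62 were in every library, with a median length of 1404 bp for those 34. The median fold enrichment of regions in every library was 30.4, 30.1, 24.2 and 34.2 at own starts, in the order H3K9cr 1, H3K9cr 2, H3K9ac 1 and H3K9ac 2. In gene bodies it was 13.1, 13.3, 10.8 and 13.9. Another 11 regions lay at the start of another gene and 9 outside the gene record. A region within 1 kb of both an own start and another gene's start was counted at the own start. Examples are the strongest regions of Ephb4 (also near Gm52791) and Plxnb1 (also near Gm7628).

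**Figure D3:**
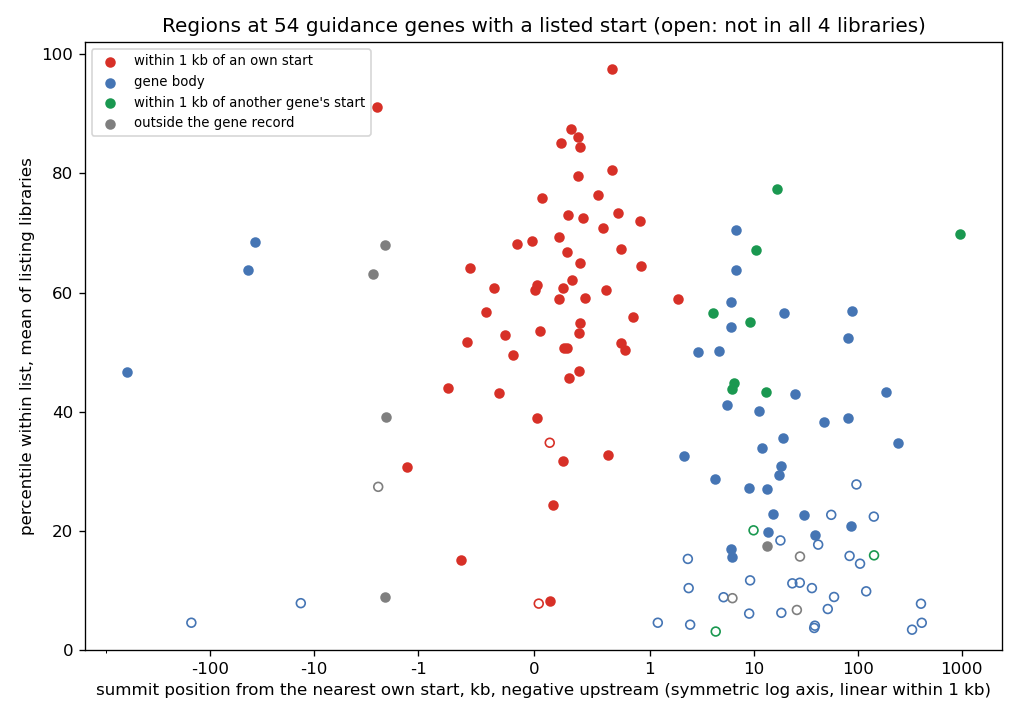
Percentile of a region's strongest peak within its list, as the mean over the libraries that list it, against the position of its summit relative to the nearest own start in kb (symmetric log axis, negative upstream), for the regions of 54 guidance genes. Filled points were listed in all 4 libraries and open points in fewer; no open point lies above 34.8, and the filled points at own starts have a median of 60.4.

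Some windows also held the start of a neighbouring gene, which can be the stronger site. At Epha6 the strongest region in every library lay at the start of Arl6, with fold enrichments of 51.4, 41.9, 36.3 and 45.6. Its own start had 21.7, 25.2, 17.4 and 27.8. The percentile of Epha6 is therefore that of a site beyond the other end of its record. At Sema4g the strongest region lay at the starts of Mrpl43 and Twnk, with 44.7, 59.1, 55.4 and 71.4. The own start of Sema4g had 43.9, 38.3, 41.2 and 46.7. The percentile of Sema4g is thus also that of a site beyond its record. These genes were named because their strongest region lay at another gene's start, after their values were seen. The strongest region was the same in all libraries for 57 of the 63 genes. Of the 48 among them with a listed start, 36 had it at an own start and 8 in the gene body.

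Among the ligands, the semaphorins spanned nearly the whole range of strength. The median of their mean percentiles was 64.1. Sema4c, which encodes a membrane-bound semaphorin that binds plexin B receptors (chromosome 1, 36548639 to 36560699), ranked highest of all guidance genes. Its strongest peak had fold enrichments of 127 and 183 for H3K9cr and 99.7 and 186 for H3K9ac, at percentiles of 96.7, 99.4, 95.4 and 98.8. That peak lay over the start, in a region of 4772 bp. The next semaphorins in order were Sema6a, Sema5b and Sema4g, transmembrane proteins, with mean percentiles of 80.8, 80.5 and 77.4. The value of Sema4g belongs to the region at the starts of Mrpl43 and Twnk, beyond its record. The region at the own start of Sema4g had a mean percentile of 69.4, below Sema4b at 75.9. Sema3g, a secreted semaphorin, was the lowest at 39.1, with fold enrichments of 15.2, 14.3, 8.91 and 13.7. Its strongest region lay 1759 bp upstream of its start.

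Sema4a and Sema4b, both membrane-bound, carried several regions each. Sema4a had 7 regions within a record on chromosome 3 from 88435959 to 88461182, the most of any ligand gene. Of these, 4 were in every library, against 5 of 5 at Sema6b. The strongest region of Sema4a, in the gene body, had fold enrichments of 33.5, 26.4, 23.1 and 30.4. Sema4b had 4 regions, and a region of 2235 bp over its inner start reached 35.0, 53.1, 34.1 and 46.4. Its outer start was higher in each library, at 64.0, 57.3, 39.5 and 60.8.

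Among the families of 7 or more genes, the ephrins had the highest median of strength and the shortest median record. Ephrins are membrane-anchored ligands, those of class A by a lipid anchor and those of class B by a transmembrane segment. The median of their mean percentiles was 73.4 and their median covered length was 5148 bp, in records with a median of only 9222 bp. Efna5 (chromosome 17, 62602957 to 62881317), a class A ephrin used in topographic mapping, ranked second of all guidance genes with a mean percentile of 91.1. Its fold enrichments were 98.5 and 106 for H3K9cr and 79.0 and 98.1 for H3K9ac. Efna4 followed with 72.0, 60.3, 45.8 and 72.3. Efna1 was the lowest ephrin, at 24.9, 23.8, 26.0 and 27.6, with its start and that of the neighbour Slc50a1 at similar values.

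Efnb2 (chromosome 8, 8617235 to 8661242) carried the longest single region of the set. Efnb2 encodes a class B ephrin that marks arterial endothelium and takes part in boundary formation. The region over its start was 6988 bp long, and peaks covered 6957 and 6920 bp of the window in the H3K9cr libraries and 6641 and 6889 bp in the H3K9ac libraries. Its strength was ordinary for the set, with percentiles of 64.4, 62.6, 67.6 and 73.0. Width and strength thus did not go together at this gene.

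Slits and netrins are secreted cues, known from the midline of the nervous system. The median of the mean percentiles was 59.1 for the 3 Slits and 53.4 for the 4 netrins. Slit3 was the highest Slit, with fold enrichments of 39.2, 46.9, 32.9 and 45.7. Slit1 was the lowest, with 14.5, 11.7, 13.5 and 11.2, and its window held 6 regions, of which 3 were in every library. Ntn4, a netrin found in basement membranes, was the highest netrin with 36.9, 51.7, 44.2 and 58.5. Ntn5 was the lowest, with 13.5, 8.42, 9.88 and 7.16, all from a region upstream of the gene record. Families of 3 or 4 genes are too small for their medians to be ranked.

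The receptors with the highest mean percentiles were Ephb4, Plxnb1, Ephb1 and Plxnb2, at 87.4, 86.1, 85.1 and 84.6. Plexins are the signalling receptors of semaphorins, and Plxnb1 binds Sema4d. Plxnb1 (chromosome 9, 109093849 to 109119915) had fold enrichments of 87.4 and 67.5 for H3K9cr and 66.4 and 93.0 for H3K9ac. Plxnb2 had 83.1, 72.2, 54.6 and 88.2. Plxna4, a neuronal plexin, was the lowest plexin with 12.5, 12.0, 12.4 and 10.7. The median of the mean percentiles over the 7 plexins was 65.0.

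Plxnb2 (chromosome 15, 89155546 to 89182018) had the largest covered length of all guidance genes. H3K9cr peaks covered 10998 and 10905 bp and H3K9ac peaks 10487 and 10689 bp, which was 34.2% of its window on average. Its 2 listed starts both lay under peaks in every library, in regions of 4968 and 5658 bp. All libraries showed the same arrangement.

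The 14 Eph receptors had a median mean percentile of 62.3. Ephb4, the receptor of Efnb2 on venous endothelium, was the highest (chromosome 5, 137350109 to 137374522). Its fold enrichments were 93.4 and 69.2 for H3K9cr and 67.8 and 101 for H3K9ac. Ephb1 followed with 71.8, 91.7, 53.2 and 91.9, and Epha8 was the lowest with 10.00, 7.84, 7.75 and 7.57. Ephb1 and Ephb2 were also spread over many regions, 8 and 6. At Ephb1, 3 of the 8 regions were in every library, and a region 86293 bp from the start reached 29.2, 29.0, 21.5 and 25.7. At Ephb2, 5 of the 6 were in every library, and a region 79602 bp from the start had 21.1, 22.9, 17.7 and 26.7, about the level of the start itself (16.4, 26.6, 14.1 and 33.5).

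Robos ranged from average to the weakest gene of the set. Robo1, the main Slit receptor of commissural axons together with Robo2, had fold enrichments of 52.0, 49.4, 29.0 and 55.9. Robo2 had 14.4, 23.6, 16.0 and 31.6, and Robo3 had 14.1, 13.4, 11.3 and 12.0. Robo4, the Robo of endothelial cells (chromosome 9, 37401902 to 37414023), had 6.35 and 8.01 for H3K9cr and 4.45 and 5.08 for H3K9ac. Its percentiles were 18.8, 27.8, 7.03 and 9.13, from a single region of 686 bp inside the gene. With only peaks of -log10 q of at least 10, Robo4 kept a peak in the H3K9cr libraries and in neither H3K9ac library.

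The Unc5 receptors, which mediate repulsion by netrins, differed more in extent than in strength. Their mean percentiles lay between 56.8 for Unc5c and 70.5 for Unc5a. Unc5b (chromosome 10, 60762594 to 60831581), which also acts in blood vessels, had H3K9cr peaks over 10132 and 10778 bp and H3K9ac peaks over 8451 and 9485 bp. These came from 8 regions, of which 5 were in every library. Those 5 reached no further than 31.6 kb past the start. Regions in fewer libraries lay as far as 51.7 kb into the record of 69.0 kb. Unc5c had 1 region, with covered lengths of 1756, 1568, 1612 and 2148 bp.

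**Figure D4:**
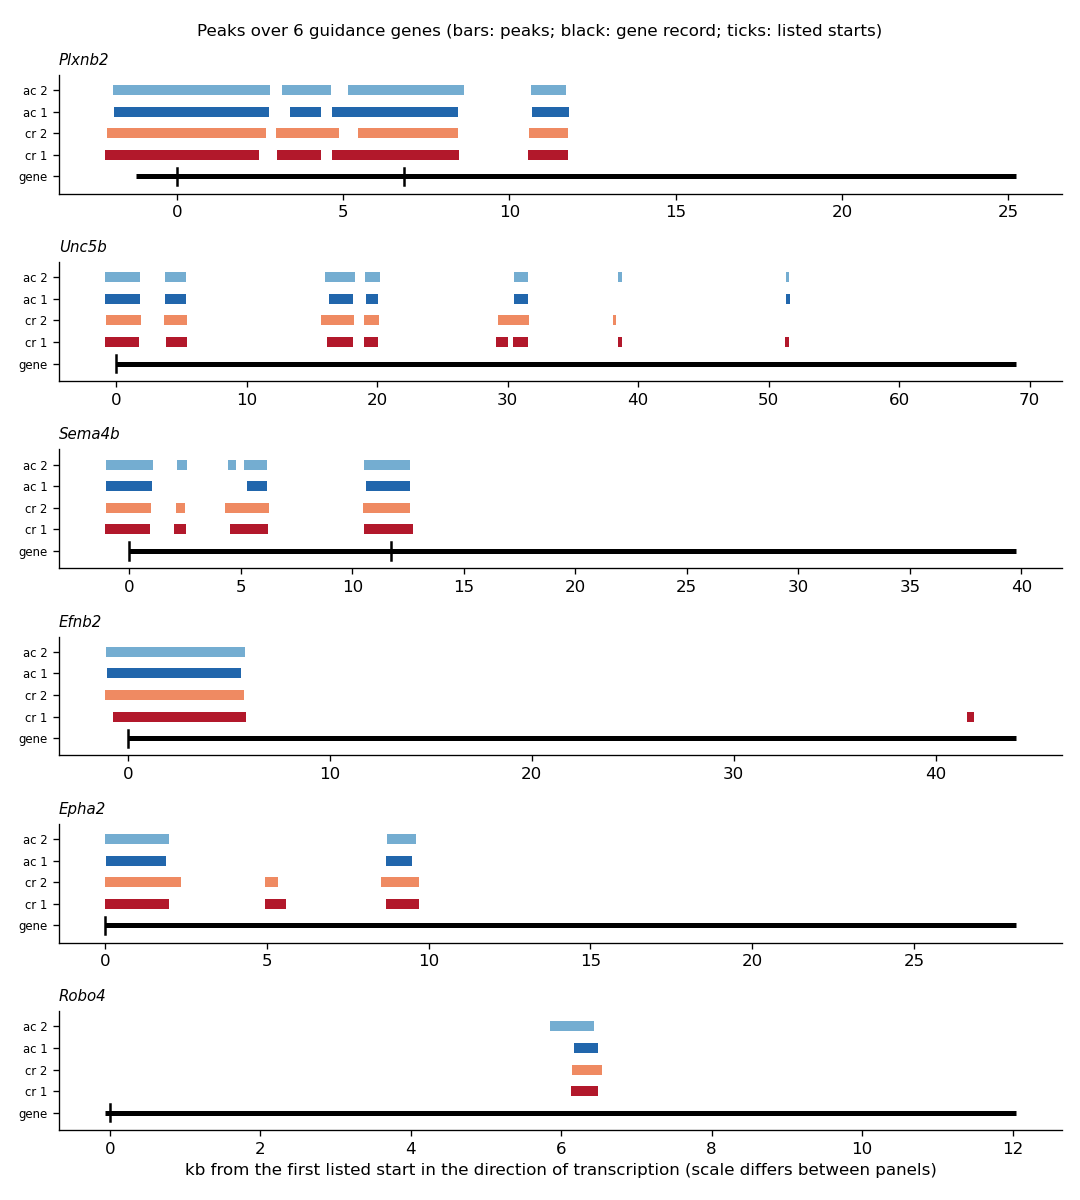
Peaks of the 4 libraries (coloured bars; cr, H3K9cr; ac, H3K9ac) over 6 guidance genes, in kb from the first listed start in the direction of transcription, with the gene record in black and listed starts as ticks. Plxnb2, Unc5b and Sema4b carry several regions, Efnb2 a domain of 6988 bp and a short peak in a single library, Epha2 a middle region listed for H3K9cr alone, and Robo4 a single region away from its start.

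H3K9cr and H3K9ac were compared at these genes through totals, covered length and relative peak height. The windows held 149 and 152 H3K9cr peaks and 133 and 142 H3K9ac peaks, 150.5 ± 2.12 against 137.5 ± 6.36 (SD, n = 2 each). Covered length summed to 236 and 241 kb for H3K9cr and 209 and 231 kb for H3K9ac, 238.7 ± 3.37 against 220.1 ± 15.9 kb (SD, n = 2 each). Both H3K9cr libraries were above both H3K9ac libraries in either measure. By an exact permutation test, two-sided, p was 0.333 for each, the smallest value possible with 2 libraries a side. The H3K9cr lists were also longer over the whole genome. With each list cut to its strongest 26096 peaks, the difference fell from 13.0 to 5.0 peaks and from 18.5 to 16.0 kb, with the same p.

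For single genes, log2 covered length was centred on the median of its library and fitted with limma over all 14372 marked genes, with Benjamini-Hochberg adjustment over all of them. No gene passed an adjusted p of 0.05 with H3K9cr wider (0%) or with H3K9ac wider (0%), and so no guidance gene did. At best a gene reached an adjusted p of 0.308, while before adjustment 750 genes (5.22%) lay under 0.05. Among guidance genes 3 of 63 did, namely Epha2, Ntn4 and Sema4d. The median difference, H3K9cr minus H3K9ac, was 0.010 over the guidance genes and -0.009 over all genes.

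Epha2 encodes an Eph receptor that is expressed in early embryos and in many epithelia. At Epha2 the H3K9cr peaks covered 3626 and 3919 bp and the H3K9ac peaks 2662 and 2886 bp, so the groups did not overlap. The difference was 0.36 on the log2 scale (SE 0.0646, n = 2 each, unadjusted p = 0.00438 and adjusted p = 0.631 in limma). Part of it was a region of 644 bp in the gene body listed for H3K9cr only. At Sema4d, which encodes the ligand of Plxnb1, the order was the opposite, with 1711 and 1991 bp under H3K9cr peaks and 2143 and 2157 bp under H3K9ac peaks. The difference was -0.30 (SE 0.0914, n = 2 each, limma adjusted p = 0.837). Here a weak region was missing from the first H3K9cr list.

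At Epha8 and Slit1 the H3K9ac replicates lay far apart. Epha8 had the largest difference, 0.41 with an SE of 0.695 (limma adjusted p = 0.932), from 1125 and 923 bp under H3K9cr peaks against 353 and 1488 bp under H3K9ac peaks. The H3K9ac replicates bracketed both H3K9cr libraries. Slit1 had 0.30 with an SE of 0.312, from 3050 and 2903 bp against 1627 and 3199 bp, again with overlapping groups. Without the first H3K9ac library the differences were -0.59 at Epha8 and -0.14 at Slit1, and without the second they were 1.40 and 0.74. Efna4 had 0.20, Unc5c -0.25, Robo4 -0.25 and Efna1 -0.17, with no adjusted p under 0.893 in limma. Robo4 turned to 0.15 without the second H3K9ac library and was -0.64 without the first.

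**Figure D5:**
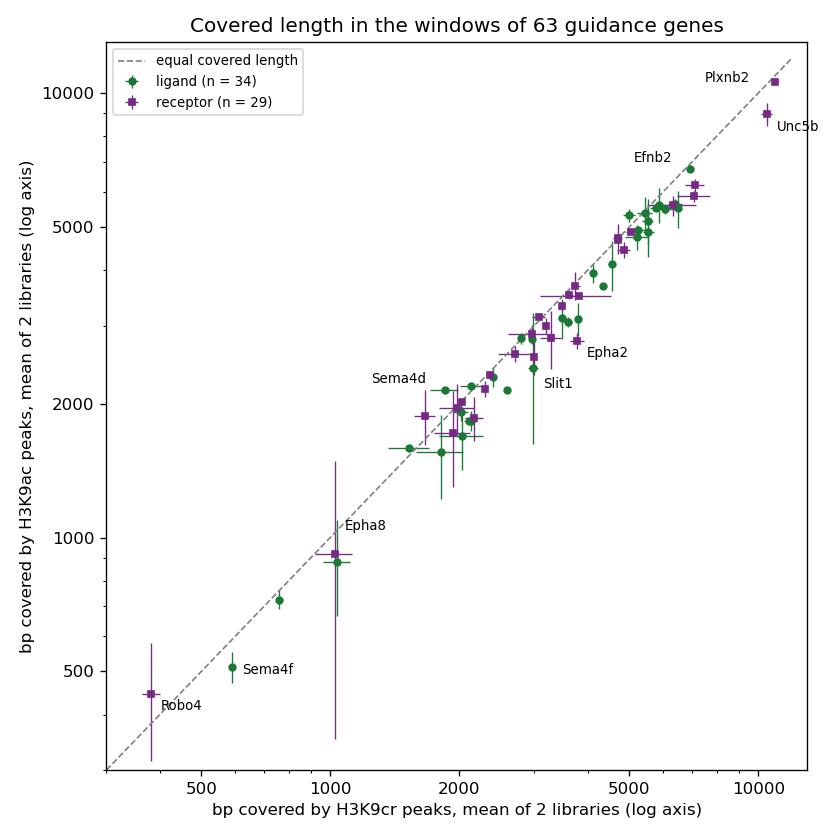
Base pairs covered by H3K9ac peaks against H3K9cr peaks in the window of each guidance gene (points, means of 2 libraries; bars, the 2 libraries; both axes log), before centring, with the line of equal length dashed. Points follow the line from Robo4 to Plxnb2, and the longest bars belong to Epha8 and Slit1.

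After centring, 13 of the 63 genes (20.6%) were wider in both H3K9cr libraries than in both H3K9ac libraries, against a background of 16.1% of all marked genes. They were the receptors Epha2, Ephb1, Ephb2, Robo2 and Unc5b and the ligands Efna4, Ntn4, Sema3c, Sema4b, Sema4f, Sema4g, Sema6c and Sema6d. In 7 genes (11.1%) both H3K9ac libraries were wider, among them Efnb2, Epha7 and Sema4d, against 20.5% of all marked genes. In the other 43 genes the groups overlapped. The shares lie on either side of the background, and no test of this difference was run.

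Relative peak height was compared as normal scores of the ranked summit pileup. Over all genes, limma called 17 genes (0.118%) higher for H3K9cr and 6 (0.0417%) higher for H3K9ac at an adjusted p of 0.05. Those 23 calls varied with the setting, from 0 in limma with fold enrichment in place of pileup (116 genes under 0.05 before adjustment) to 172 with the replicate number as a block and 275 without the second H3K9ac library. No guidance gene was called under any of these. Before adjustment, 2 of 63 guidance genes (3.17%) lay under 0.05, namely Robo4 and Sema4c, against 1242 of all genes (8.64%). Their differences, H3K9cr minus H3K9ac, were 0.27 (SE 0.107) and 0.21 (SE 0.0928) in normal score units (n = 2 each, limma adjusted p = 0.517 and 0.569).

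Regions listed in both replicates of 1 mark and in neither of the other were few and weak. At guidance genes 8 of 163 regions (4.91%) were listed for H3K9cr in both replicates and for H3K9ac in neither, against 2.55% of all autosomal regions. No region was listed for H3K9ac in both replicates and for H3K9cr in neither, against 0.278% of all autosomal regions. A further 17 regions at guidance genes were listed in 1 library only, of either mark, and are not counted here. The 8 regions lay at Sema6d, Efna3, Sema6c, Epha2, Ntn4, Plxnc1, Ntn3 and Sema6a, 1 at each gene. They were 313 to 661 bp long with fold enrichments of 2.83 to 7.77, below the medians of 19.7 and 18.7 over all peaks of the H3K9cr lists. Each of these genes also had a region with both marks in every library.

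The libraries ranked the guidance genes much alike. Across the 63 genes, Spearman's rho of covered length lay between 0.960 and 0.983 for the 6 pairs of libraries. For the list percentile, rho was 0.860 for the pair of H3K9cr libraries and 0.857 for the pair of H3K9ac libraries. Between marks it was 0.926 for the libraries numbered 1 and 0.963 for those numbered 2, against 0.852 and 0.851 for unlike numbers. In this measure libraries of like number were closer than libraries of like mark. These values describe 1 set of genes that differ in width and base composition, and no p is given.

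The likeness of like-numbered libraries was plain at Epha7, which encodes an Eph receptor of the developing brain, with 1 region of 4800 bp over its start (chromosome 4, 28811815 to 28816614). Its percentiles were 79.9 for H3K9cr and 75.6 for H3K9ac in the libraries numbered 1, against 49.6 and 51.8 in those numbered 2. Sema4d was similar, at 77.9 and 77.0 against 60.3 and 58.9. Plxnd1, a plexin that binds Sema3e, had the opposite order, at 40.2 and 36.3 in the libraries numbered 1 and 56.7 and 54.2 in those numbered 2. Epha7 and Plxnd1 were named after their values were seen, and no cause was tested. Covered length at Epha7 hardly moved, from 4649 to 4735 bp.

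The partners of these families were marked as well. All 14 other guidance ligands, all 21 co-receptors and other receptors and all 51 intracellular effectors that were listed had a peak in every library, against 69.5% of all genes. These lists were not set beside genes of like length, and long genes meet a peak more often. Median mean percentiles were 57.8, 59.4 and 76.9, beside 63.7 for the guidance genes and 77.2 for all marked genes. Bdnf, a neurotrophin, was the strongest other ligand with fold enrichments of 113, 157, 72.1 and 149. Rgmb, Rgma and Draxin followed at mean percentiles of 73.5, 73.0 and 67.0. Among the receptors, Boc and Neo1, which bind hedgehog and netrin or repulsive guidance molecules, reached 96.4 and 95.8, ahead of Smo at 85.9 and Ptch1 at 81.7.

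The effectors Gsk3b, Rhoa, Limk2 and Rac1 are kinases and small GTPases that act in most cell types, and stood at 97.9, 97.2, 97.1 and 96.4. By contrast Dcc, the attractive netrin receptor, was at 30.7, with fold enrichments of 10.4 and 9.16 for H3K9cr and 6.59 and 12.8 for H3K9ac. The neuropilins, co-receptors of class 3 semaphorins, were at 46.9 (Nrp1) and 66.6 (Nrp2). Dcc, Nrp1 and Nrp2 were named for their roles after their values were seen.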

How the data were processed

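H3K9cr and H3K9ac were measured in 2 libraries each. Reads were aligned and peaks called by the authors with Bowtie2 2.4.1 and MACS2 2.2.7.1 on GRCm38, per the submitters' processing notes; of options, depth and the input used for each list, nothing is known here. Each deposited peak has, per the file headers, positions in bp, a pileup (coverage signal at the summit), -log10 p-value and -log10 q-value, and a fold enrichment (ratio to local background). Pileup was whole in 1 of 4 lists and so appeared scaled in the others. Only ranks of per-peak values were compared between libraries.

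Peaks were joined by at least 1 bp of overlap to RefSeq gene records (GRCm38.p6, counted from 1) widened by 2.5 kb. That table gives no strand, so strand, starts and sequences came from the RefSeq promoter table. limma 3.58.1 (R 4.3.3) with Benjamini-Hochberg adjustment was run on log2 covered length and on normal scores of summit pileup, over 14372 autosomal genes with a peak in every library; other steps used Python 3.11.15 with scipy 1.17.1, numpy 2.4.6 and pandas 2.3.3. The code was tested on simulated data. Where nothing in the labels says more than biological replicates, p-values measure the spread between these libraries.

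The members and gene lists were chosen with earlier results of these data known. Genes named were the 10 highest and 5 lowest by mean percentile, the 5 with the largest covered length and the 5 with the most regions, the 4 largest covered-length differences per direction, the first and last of each family, up to 4 genes per other list, and all markers. Markers that are not autosomal were not matched. Alternatives changed the window, overlap rule, peak threshold, list length, centring, scale, height measure, replicate block and libraries.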

Additional observations from a re-analysis of the deposited data

How the results depend on the processing

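No guidance gene was called for covered length or relative height in any fit. Peaks in every library were found at 62 of 63 genes without the 2.5 kb margin (not Ntn5) and at 62 with a -log10 q of at least 10 (not Robo4), where Robo4 became the 1 gene with H3K9cr alone. Within 1 kb of either end of the record the count was 57 of 63, against 63.0% of all genes, and within 1 kb of a listed start, an alternative chosen after seeing the data, 50 of 54, against 64.1%. The number of genes called for relative height was 23 of 14372 in the main analysis. Over the same genes it was 172 with the replicate block. It was 0 with fold enrichment in place of pileup (116 genes at an unadjusted p under 0.05, limma). Without the margin it was 13 of 14032 genes, and with summits in the window 8 of 14265. Each setting was fitted over its own genes with a peak in every library used. Leaving out 1 library gave 59 to 275. Replicate numbers are not stated to mark a shared batch. Over all 14372 genes, the difference between the replicates of H3K9cr was correlated with that of H3K9ac. The correlation was 0.137 for covered length and 0.0249 for height. At the 63 guidance genes, the replicate ratio of fold enrichment had a rho of 0.490 between the marks. Levels of the list percentile at these 63 genes had rho of 0.926 and 0.963 for like numbers, against 0.860 and 0.857 for like marks. Differences and levels, and the 2 gene sets, are unlike measures, so these values cannot be set against each other. The replicate block gave 0 calls for covered length. Without centring, 54 of 63 covered-length differences were positive, against 34. The median difference without centring was 0.094 over the guidance genes and 0.076 over all genes, so all genes shifted as well. The sign of the difference reversed for Robo4 (-0.64 to 0.15 over the fits without 1 library, the latter without H3K9ac replicate 2), Efna4 (-0.11 without the margin), Slit1 (-0.14 without H3K9ac replicate 1 to 0.74 without replicate 2) and Epha8 (-0.59 without H3K9ac replicate 1 to 1.40 without replicate 2, -0.23 at -log10 q of at least 10, -0.34 with equal numbers of peaks). The cause was not tested. Depth is unknown, which limits what a missing peak shows.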
